A study of Mus musculus with 26 samples.

Results

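Translation factors and aminoacyl-tRNA synthetases were examined in hearts of mouse embryos that lack the NK2-specific domain of Nkx2.5, a transcription factor needed for heart development. They were taken as every probe set with 1 annotated gene symbol beginning Eif or Eef and a digit, or equal to Etf1, Gspt1 or an aminoacyl-tRNA synthetase symbol ending in ars, ars1 or ars2. This gave 88 probe sets of 59 genes, out of 6137 genes with a single symbol on the arrays. The 59 genes comprised 8 of elongation, 2 of release, 7 of start-codon selection and initiator tRNA delivery, 5 of eIF2B and the eIF2 kinases, 11 of eIF3, 10 of cap recognition and eIF4, 1 of subunit joining and 15 synthetases. The symbols Farsa and Farsb fall outside the rule and were left out.

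Total RNA of whole hearts at embryonic day 12.5 was hybridised to an A and a B array per heart. The 13 hearts were null for the domain deletion (hearts 3, 4, 8 and N3), heterozygous for it (hearts 5, 6, 12 and N2) or wild-type (hearts 1, 2, 7, 9 and N1). No further allele or treatment is named in the labels, nor strain, sex or litter, so the hearts may share litters and a p-value covers the heart-to-heart spread alone. The study asks which heart transcripts differ when this domain is missing.

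Protein synthesis begins when eIF2 brings the initiator tRNA to the small ribosomal subunit, eIF3 holds that complex together and eIF4 factors load it on the capped mRNA. eEF1A then carries each aminoacyl-tRNA to the ribosome and eEF2 moves the ribosome along, until eRF1 and eRF3 release the chain. Synthetases charge each tRNA with its amino acid. Growing tissues such as the fetal heart need this machinery in every cell, and mammals have a second eEF1A gene, Eef1a2, that is used in muscle and neurons while Eef1a1 is used in most other cells.

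Promoter windows of 4 members are shown because Eef1a1 and Eef1a2 are the pair whose probe sets differed most with heart number, and because Aars and Tars hold the motif through which ATF4, the transcription factor of the amino acid response, is known to act. The sequences are from RefSeq (GRCm38.p6), run from 250 bases before to 50 bases after the annotated start, and are written 5′ to 3′ along the gene's strand. Capitals mark motifs.
Eef1a1, chr9:78481675-78481974, minus strand: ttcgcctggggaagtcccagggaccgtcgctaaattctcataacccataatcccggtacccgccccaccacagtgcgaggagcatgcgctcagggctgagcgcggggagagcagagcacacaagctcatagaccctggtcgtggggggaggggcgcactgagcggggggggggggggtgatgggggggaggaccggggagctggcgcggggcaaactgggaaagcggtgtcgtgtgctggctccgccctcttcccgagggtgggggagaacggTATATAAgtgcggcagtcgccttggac
Eef1a2, chr2:181156966-181157265, minus strand: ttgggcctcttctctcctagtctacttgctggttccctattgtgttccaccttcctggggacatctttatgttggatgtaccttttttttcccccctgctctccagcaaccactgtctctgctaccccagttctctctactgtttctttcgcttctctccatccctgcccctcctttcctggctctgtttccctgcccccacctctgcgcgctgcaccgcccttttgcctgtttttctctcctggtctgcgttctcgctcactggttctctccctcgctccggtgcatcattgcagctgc
Aars, chr8:111033592-111033891, plus strand: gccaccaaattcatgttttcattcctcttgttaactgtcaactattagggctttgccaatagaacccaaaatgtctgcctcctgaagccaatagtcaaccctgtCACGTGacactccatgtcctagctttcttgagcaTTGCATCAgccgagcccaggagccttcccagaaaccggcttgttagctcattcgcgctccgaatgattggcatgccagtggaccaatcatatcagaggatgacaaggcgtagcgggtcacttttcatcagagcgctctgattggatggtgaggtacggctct
Tars, chr15:11399609-11399908, minus strand: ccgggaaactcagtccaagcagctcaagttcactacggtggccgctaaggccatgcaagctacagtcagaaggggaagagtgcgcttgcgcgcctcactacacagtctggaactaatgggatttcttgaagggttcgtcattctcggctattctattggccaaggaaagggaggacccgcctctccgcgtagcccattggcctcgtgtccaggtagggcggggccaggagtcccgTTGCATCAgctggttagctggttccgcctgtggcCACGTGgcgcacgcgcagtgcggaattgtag
RefSeq windows were found for 44 of the 59 genes. The motif TGATGCAA, read on both strands (reverse complement TTGCATCA), was present in 0.895% of all 32851 windows and in those of 3 member genes, Aars, Tars and Yars. CACGTG, the E-box core that reads the same on both strands, was present in 7.15% of all windows and in those of 11 member genes. TATATAA, or TTATATA on the other strand, was present in 3.24% of all windows and among members only in that of Eef1a1. In Aars and Tars the TGATGCAA and CACGTG matches do not overlap. These matches describe the letters only.

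Of the 88 probe sets, 63 (46 genes) gave enough signal to be tested, 71.6% against 34.4% of all 13069 probe sets that were not controls. Tested means over a floor of 2 times the array noise (887 intensity units on A arrays, 1373 on B arrays) on at least 4 arrays, with at least 2 values in each genotype. A probe set could pass through the hearts of 1 group alone. Of the other 25 probe sets, 20 were over the floor in no heart and 5 in 1 to 3 hearts. The 13 genes without a tested probe set were Eef2k, the kinase that inhibits eEF2; Eif2ak2, the double-stranded RNA kinase of eIF2; Eif4e, the cap-binding protein; Eif4enif1, its nuclear transporter; Eif4h, a helicase cofactor; Eif5, the GTPase activator of eIF2; Eif6, which keeps the subunits apart; the eIF3 subunits Eif3i and Eif3j1; and the synthetases Kars, Mars1, Sars2 and Yars. A probe set under the floor bounds a signal and does not show that a gene is silent. The eIF3 subunit Eif3m ranged over hearts from 176 to 405 on one probe set and from 3215 to 5287 on another, and the translocase gene Eef2 stayed at or below 178 on one and between 22817 and 34869 on another.

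The arrays had been scaled by the authors, and 3 A and 3 B arrays were mostly blank: the A arrays of wild-type heart 1 and heterozygous hearts 6 and N2, and the B arrays of null heart 3 and wild-type hearts 9 and N1. Only 18 of the 63 tested member probe sets had a value in all 13 hearts, and the fewest was 7. All 11 cardiomyocyte markers on the arrays were over the floor often enough to be tested, whereas 0 of 4 liver and 0 of 4 neuron markers were. The liver markers Afp and Alb still summed to 5867 over 3 probe sets in a heterozygous heart. In whole-heart RNA, fewer cells of a type and less RNA per cell cannot be told apart.

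No translation factor or synthetase passed the test between null and wild-type hearts. Of 63 member probe sets 0 had an adjusted p under 0.05 in limma, where the background was 0.0223% of the 4494 tested probe sets. At an unadjusted p under 0.05 there were 2 members, 3.17%, against a background of 2.4%. The median member difference, null minus wild-type, was 0.03 on the log2 scale beside -0.0063 over all tested probe sets, and 38 of 63 were above 0 (60.3%, against 48.6% of all). This median was -0.00078 under quantile scaling and -0.00045 under median-ratio scaling, and it ranged from 0.0066 without wild-type heart 9 to 0.098 without null heart 8. The individual differences ran from -0.30 to 0.51. The role medians were 0.14 for 10 elongation probe sets, 0.09 for 4 of release and 0.05 for 9 of start-codon selection and initiator tRNA. They were -0.03 for 5 of eIF2B, 0.02 for 11 of eIF3, 0.16 for 10 of cap and eIF4, and 0.0093 for 14 of synthetases. The 10 elongation probe sets cover 7 genes, and 4 of the 10 are of Eef1a1.

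**Figure D1:**
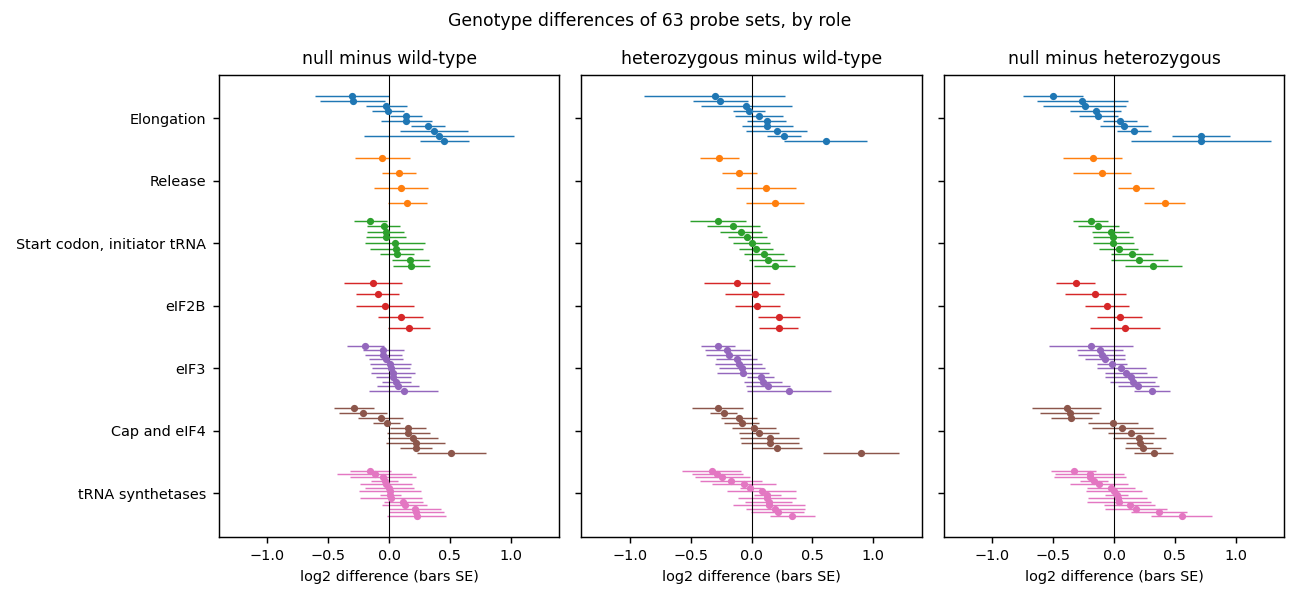
Log2 differences (x axis, bars SE) of the 63 tested probe sets in 3 genotype comparisons, grouped by role on the y axis, each point 1 probe set. In null minus wild-type the points lie between -0.30 and 0.51, and none passed the adjusted threshold in any panel.

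Among elongation factors, Eef1d, an exchange factor that recharges eEF1A with GTP, gave 14758, 12954, 12431 and 11960 intensity units in null hearts, against 11231, 8946, 10652 and 10961 in the 4 wild-type hearts with a value. All null hearts were above all wild-type hearts. The difference was 0.32 ± 0.14 (SE, log2, limma adjusted p = 0.9999). It was 0.30 within hearts 1 to 6, where heart 2 was the only wild-type heart with a value. Within hearts 7 to 12 and N, called the later hearts here, it was 0.27. Heterozygous hearts had 10176, 15143, 13861 and 11561, which spans both groups (0.27 ± 0.14 over wild-type, adjusted p = 0.981). The other 2 subunits of the exchange complex gave smaller differences between null and wild-type hearts, -0.01 for Eef1b2 and 0.14 for Eef1g.

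Eef1a1, the main aminoacyl-tRNA carrier, has 4 probe sets, and all 4 are of a kind that can match related sequences, so signal from its paralogue Eef1a2 and from pseudogenes may enter. On m22432_f_at null hearts had 76696, 89503 and 72133, against 74375, 48315, 56309 and 54798 in wild-type hearts. Null hearts lay above every wild-type heart but heart 2, which was higher than null heart N3. The difference was 0.46 ± 0.20 (adjusted p = 0.9999), but 0.16 within hearts 1 to 6 and 0.44 within the later hearts. Of wild-type hearts 1 to 6 only heart 2 had a value, and of later null hearts only N3. The difference was 0.11 under quantile scaling and 0.23 with the heart-number group as a block. Heterozygous hearts had 59910 and 38869, below all null hearts. The null minus heterozygous difference was 0.71 ± 0.24 (adjusted p = 0.774), the smallest p of a member in that comparison, and it was 0.27 under quantile scaling. The other 3 probe sets gave 0.37, -0.02 and 0.41, and the last of these, the only one on the B arrays, had an SE of 0.62. Among all 160 tested probe sets with a mean above 15 on the log2 scale, as on this one, the median null minus wild-type difference was 0.26. Eef1a2 differed by -0.30 ± 0.31.

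Eef2 had 30323, 27904 and 34869 in null hearts, against 30583, 31434 and 22817 in wild-type hearts, with full overlap and a difference of 0.14 ± 0.21. Eif5a, whose protein carries the amino acid hypusine, had 8554, 5369 and 5242 in null hearts, 7189, 9810, 9069 and 9437 in heterozygous hearts, and 9814, 8965 and 5080 in wild-type hearts. Its null minus heterozygous difference was -0.50 ± 0.25 (adjusted p = 0.790), with 1 null heart inside the heterozygous range. It was 0.03 within hearts 1 to 6, where heart 4 was the only null heart with a value, and -0.80 within the later hearts.

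In cap recognition and eIF4, Eif4ebp1, which binds and blocks eIF4E, had 12520, 13933 and 13783 in null hearts, 11326 and 10098 in heterozygous hearts, and 12162, 11518, 12150 and 10215 in wild-type hearts. Every null heart was above every heart of the other genotypes. The difference was 0.22 ± 0.13 for null minus wild-type (adjusted p = 0.9999) and 0.33 ± 0.16 for null minus heterozygous (adjusted p = 0.790). Its relative Eif4ebp2 has the same inhibitory role. On U75530_s_at it had 1802, 877 and 1267 in null hearts, 1512 and 1812 in heterozygous hearts, and 832 and 816 in wild-type hearts. Both wild-type values and that of null heart 4 were under the floor, and the probe set was tested on the signal of the other genotypes. With these values raised to the floor the log2 difference from wild-type was 0.90 ± 0.31 in heterozygous hearts (adjusted p = 0.981) and 0.51 ± 0.28 in null hearts (adjusted p = 0.9999). Over the 17 alternative settings in which it could be tested these were 0.57 to 1.01 and 0.34 to 0.77. None of the 17 left out a wild-type or heterozygous heart with a value, as too few values then remained. The other tested Eif4ebp2 probe set gave 0.15 and -0.21 on the log2 scale for these comparisons.

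The RNA helicase Eif4a2 had 8556, 7927, 6549 and 11137 in null hearts, 11112, 11339, 11298 and 9198 in heterozygous hearts, and 7898, 11031, 11186, 9661 and 12012 in wild-type hearts. Null heart N3 lay among the other genotypes, and the other 3 null hearts were low, as was wild-type heart 1. The differences were -0.29 ± 0.16 from wild-type (adjusted p = 0.9999) and -0.35 ± 0.17 from heterozygous hearts (adjusted p = 0.790, and -0.19 under quantile scaling). The paralogous helicase gene Eif4a1, the main one of eIF4F, differed by 0.16 and 0.22 between null and wild-type hearts on its 2 probe sets.

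Eif4b, the cofactor of these helicases, was among the tightest members. On aa387455_at it had 11711, 11208, 10404 and 12515 in null hearts, 9235, 10719, 9963 and 9675 in heterozygous hearts, and 11170, 11393, 11944 and 11804 in wild-type hearts. Every heterozygous heart was below every wild-type heart, a difference of -0.23 ± 0.11 (adjusted p = 0.981). The second probe set gave -0.08 for the same comparison.

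**Figure D2:**
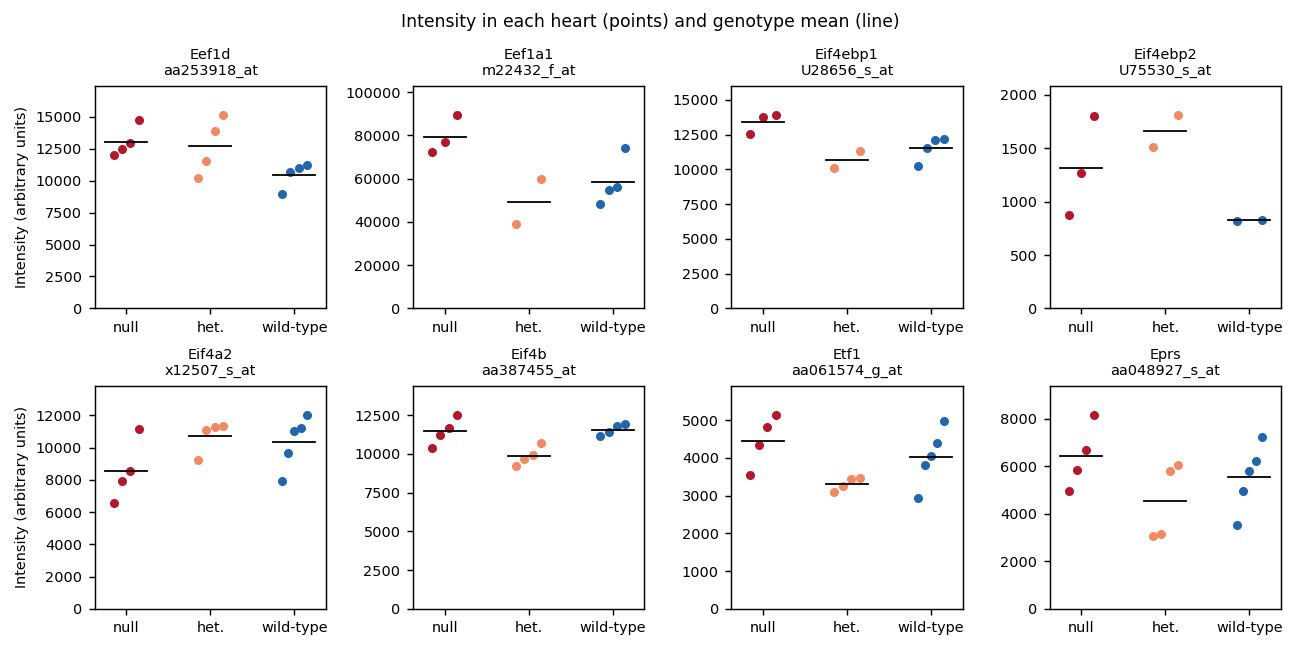
Intensity (y axis, arbitrary units, linear from 0) in each null, heterozygous and wild-type heart (points), with the genotype mean as a line, for 8 member probe sets. The 4 null hearts of Eef1d, from 11960 to 14758, all lie above the wild-type hearts, whose highest is 11231, whereas groups overlap for Eif4a2 and for Eprs.

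In eIF3, the scaffold of the small-subunit complex, the 11 tested probe sets stayed between -0.20 and 0.12 for null minus wild-type. Eif3b had 5253, 4367, 5961 and 5445 in null hearts, against 4795, 6551, 6381 and 6392 in wild-type hearts. The difference was -0.20 ± 0.15 (adjusted p = 0.9999). It was -0.0016 within hearts 1 to 6, where heart 2 was the only wild-type heart with a value. Within the later hearts it was -0.18. Eif3m had 3704, 3341, 3215 and 4336 in heterozygous hearts, against 4927, 4568, 4490, 3956 and 4040 in wild-type hearts. One heterozygous heart, N2, lay inside the wild-type range, and the difference was -0.27 ± 0.14 (adjusted p = 0.981).

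Of the factors around the initiator tRNA, Eif1b, a relative of the start-codon selection factor eIF1, differed by -0.15 ± 0.14 between null and wild-type hearts on AA231160_s_at and by 0.05 on the other probe set. On AA231160_s_at it had 5856, 4777, 6048 and 5310 in null hearts, against 6479, 6930, 6849, 4734 and 5750 in wild-type hearts. All null hearts lay within the wild-type range. Eif2s2 and Eif2s3x, the beta and gamma subunits of eIF2, differed by 0.18 and, on both Eif2s3x probe sets, by -0.03. Eif2b5, the catalytic subunit of the eIF2 recycling factor eIF2B, had 1219, 900 and 1662 in null hearts, against 1884, 1833, 1999 and 1598 in heterozygous hearts. Null hearts 4 and 8 were under the floor of 1373, while all heterozygous hearts were over it. Only null heart N3 reached the heterozygous range. With the low values raised to the floor the difference was -0.32 ± 0.16 (adjusted p = 0.790). Its second probe set gave -0.15.

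Etf1 encodes eRF1, which recognises stop codons. On aa061574_g_at it had 4334, 3553, 4811 and 5136 in null hearts, 3442, 3248, 3466 and 3101 in heterozygous hearts, and 2945, 3803, 4974, 4403 and 4062 in wild-type hearts. All null hearts were above all heterozygous hearts (0.42 ± 0.17, adjusted p = 0.774), and wild-type hearts spanned both. The other 2 tested Etf1 probe sets gave 0.18 and -0.10 for null minus heterozygous.

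Among synthetases, Eprs, the fused glutamyl- and prolyl-tRNA synthetase, had 8147, 4972, 5817 and 6691 in null hearts, 5779, 3155, 3066 and 6067 in heterozygous hearts, and 5781, 4957, 6212, 3510 and 7232 in wild-type hearts. The heterozygous hearts fell into a low and a high pair, and the null minus heterozygous difference was 0.55 ± 0.25 (adjusted p = 0.790). A second Eprs probe set gave 0.37. Aars, the alanyl-tRNA synthetase whose promoter is shown above, differed by 0.21 ± 0.22 and 0.01 between null and wild-type hearts on its 2 probe sets. Tars, the threonyl-tRNA synthetase, differed by -0.02. The 14 synthetase probe sets ran from -0.15 to 0.23 in this comparison.

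The heterozygous comparisons held no called member either. Heterozygous minus wild-type gave 0 of 63, against a background of 0%, and null minus heterozygous gave 0 of 63, also against 0%. At an unadjusted p under 0.05 there were 1 member (1.59%, against 3.38% of all) and 3 members (4.76%, against 5.79%). Median member differences were 0.04 and 0.02, beside -0.01 and 0.02 over all tested probe sets. Neither sign was stable: the first was -0.026 without the mostly blank arrays, and the second was -0.043 under quantile scaling. Differences were above 0 for 35 members (55.6%, against 47.3% of all) and for 32 members (50.8%, against 53.4%). These comparisons share hearts with each other and with null minus wild-type. Over all alternative settings Eef1d stayed between 0.25 and 0.36 and Eif4a2 between -0.43 and -0.17 for null minus wild-type. Eif2b5, with null hearts 4 and 8 under the floor, ranged between -0.58 and -0.24 for null minus heterozygous.

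Groups without overlap were few. For null minus wild-type, 2 members were higher (3.17%, against 1.07% of all) and 0 lower (against 1.2%). For heterozygous minus wild-type, 1 was higher (1.59%, against 2.63%) and 4 were lower (6.35%, against 2.87%). The lower ones were Eif3c, 1 probe set each of Eif3h and Eif4b, and Qars. For null minus heterozygous, 5 were higher (7.94%, against 3.78%) and 1 lower (1.59%, against 3.92%). Only 2 heterozygous hearts had values for Eif3c, Eif3h, Qars and Eif4ebp2 on U75530_s_at, the higher one over wild-type. The wild-type values of this Eif4ebp2 probe set were under the floor. Likewise only 2 heterozygous hearts had values in null minus heterozygous for Eef1a1 on m22432_f_at, Eif4ebp1, Eprs on aa717972_f_at and the lower one, Eif4ebp2 on aa673337_s_at.

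Among cell-type markers 0 probe sets were called between genotypes. All 14 cardiomyocyte marker probe sets were above 0 in null minus wild-type, with a median of 0.28, where 48.6% of all tested probe sets and 151 of the 160 with a mean above 15 on the log2 scale were above 0. Likewise 8 of 9 erythroid probe sets were above 0, with a median of 0.45. All 6 endothelial ones were below 0, with a median of -0.26. The summed intensity of the 4 cardiomyocyte probe sets without blanks was 168871 to 273582 in null hearts, 80888 to 194958 in heterozygous hearts and 76640 to 314217 in wild-type hearts. The erythroid sum over 3 probe sets was 99112 to 247210 in null hearts, 43882 to 132731 in heterozygous hearts and 40011 to 372685 in wild-type hearts. Their part in the member differences was not tested.

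By heart-number group 1 member probe set, of Eef1a1, was called, a smaller share than over all tested probe sets. Hearts 7 to 12 and N were set against hearts 1 to 6 with genotype in the model, where the cut between 6 and 7 was chosen in an earlier analysis after these data were seen. The labels do not say what the numbers stand for, nor where N falls among them. Hearts 7 to 12 and N are called later, and hearts 1 to 6 earlier, as names only. In limma 1 of 63 members had an adjusted p under 0.05 (1.59%, against a background of 7.14%), and 12 had an unadjusted p under 0.05 (19%, against 24.7%). The median member difference was -0.0083, beside 0.01 over all tested probe sets and -0.29 over 48 of ribosomal proteins, of which 42 were below 0. The difference was above 0 for 31 members (49.2%, against 52.1% of all).

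The called probe set was C78483_rc_f_at of Eef1a1. It had 3862 and 3989 in later null hearts, 5641 in the later heterozygous heart, and 3272, 3446 and 4109 in later wild-type hearts. In hearts 1 to 6 it had 6932 and 8309 in null hearts, 7371 in the heterozygous heart and 6853 in the wild-type heart. The later hearts were all below the earlier ones, with only 1 heterozygous heart in each group and 1 earlier wild-type heart. The difference was -0.82 ± 0.14 (adjusted p = 0.00739), and the call was lost without the filter on low values (adjusted p = 0.0689).

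The other Eef1a1 probe sets differed in size and direction. On m22432_f_at the later hearts averaged 54085 ± 12207 (SD, n = 5) and the earlier hearts 75121 ± 12128 (SD, n = 4), a difference of -0.42 ± 0.12 (adjusted p = 0.0556) that was -0.16 under quantile scaling. On the B-array probe set the means were 69943 ± 44020 (SD, n = 5) in later and 113377 ± 39946 (SD, n = 5) in earlier hearts (-1.03 ± 0.38, adjusted p = 0.124, and -0.54 under quantile scaling). On C79877_rc_f_at they were 11224 ± 1391 (SD, n = 6) and 11194 ± 2505 (SD, n = 4), a difference of 0.03 ± 0.16 (adjusted p = 0.920) whose sign turned when null heart 3 or 8 was left out.

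Eef1a2 had the opposite sign. It had 6801 and 6046 in later null hearts, 6143 in the later heterozygous heart, and 6329, 5640 and 5397 in later wild-type hearts, against 1984 and 4626 in null, 4551 in heterozygous and 4552 in wild-type hearts among numbers 1 to 6. Every later heart was above every earlier one, with null heart 3 the lowest. The difference of 0.69 ± 0.22 did not pass the test (adjusted p = 0.0757).

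**Figure D3:**
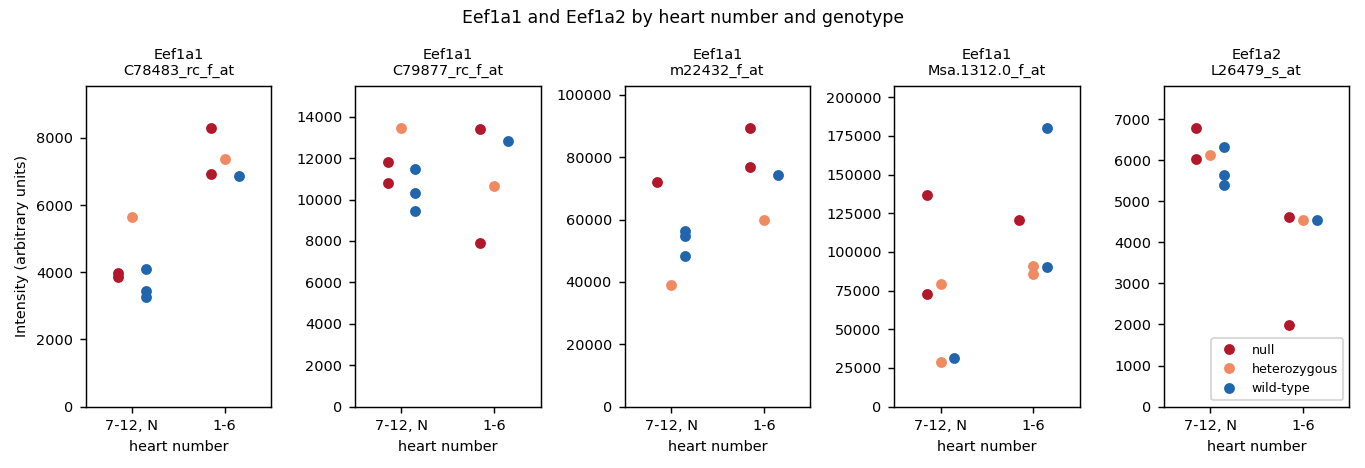
Intensity (y axis, arbitrary units, linear from 0) in each heart (points, coloured by genotype) on 4 Eef1a1 probe sets and 1 of Eef1a2, for hearts 7-12 and N on the left and hearts 1-6 on the right. The later hearts lie between 3272 and 5641 on the first Eef1a1 probe set, below the earlier hearts, and above the earlier hearts on Eef1a2.

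Members with groups that do not overlap numbered 3 higher in the later hearts (4.76%, against 3.25% of all) and 2 lower (3.17%, against 3.63%). The higher ones were Eef1a2, Eif2b4, the delta subunit of eIF2B, and Eif3b, and the lower ones were Eef1a1 and Eif3e, an eIF3 subunit. Eif2b4 averaged 2244 ± 125 (SD, n = 5) in later and 1648 ± 157 (SD, n = 4) in earlier hearts (adjusted p = 0.0949). Eif3e averaged 1963 ± 428 (SD, n = 6) in later and 3037 ± 309 (SD, n = 4) in earlier hearts (adjusted p = 0.0637). Sars, the seryl-tRNA synthetase, averaged 1311 ± 342 (SD, n = 7) in later and 1862 ± 190 (SD, n = 4) in earlier hearts (adjusted p = 0.0841).

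Some markers differed by heart-number group as well, in a comparison where 7.14% of all tested probe sets were called. Of 13 fibroblast and matrix probe sets 4 were called higher in the later hearts, of Col1a2, Eln, Lum and Mgp, with a list median of 0.49. Of 14 cardiomyocyte probe sets 3 were called lower, of Myl2 and Tnnc1, with a list median of -0.35. Of 6 endothelial probe sets 2 were called higher, of Eng and Tie1, with a list median of 0.29. Of the 6, 4 were above 0 and 2 below, from -0.30 to 0.81. Of 9 erythroid probe sets Alas2 was called higher, while the list median was -0.42 and its range -2.12 to 1.29. Of 5 skeletal muscle probe sets Myog was called lower (-0.88, adjusted p = 0.00525). The matrix sum over Col1a2, Col3a1, Dcn and Eln was 42084 to 63647 in later and 33764 to 50285 in earlier hearts. The cardiomyocyte sum over Actc1, Atp2a2, Myl3 and Ryr2 was 76640 to 273582 in later and 174405 to 314217 in earlier hearts. The endothelial sum was 22255 to 34797 in later and 13036 to 22604 in earlier hearts. It was taken over Eng, Kdr and Tie1 alone, which include the called genes. Among the 160 tested probe sets with a mean above 15 on the log2 scale the median was -0.35. The part of any of these in the Eef1a1 and Eef1a2 values was not tested.

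Spread within a genotype was small for most members. The median SD was 0.23 on the log2 scale, beside 0.27 over all tested probe sets, and at the members' middle levels it was 0.23 beside 0.29. Eif4b on aa387455_at had 0.087, and the cysteinyl-tRNA synthetase Cars had 0.079, where only 4 of 13 values were over the floor. At the wide end were the B-array probe set of Eef1a1 with 0.89, Eef1a2 with 0.55 and Eef1a1 on C78483_rc_f_at with 0.50. Per heart, the median member deviation from the all-heart mean ran from -0.09 in wild-type heart 9 to 0.16 in null heart 3. That of ribosomal protein probe sets ran from -0.29 in wild-type heart 7 to 0.46 in wild-type heart 1. Heart 1 had values for only 17 of the 48 ribosomal protein probe sets.

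**Figure D4:**
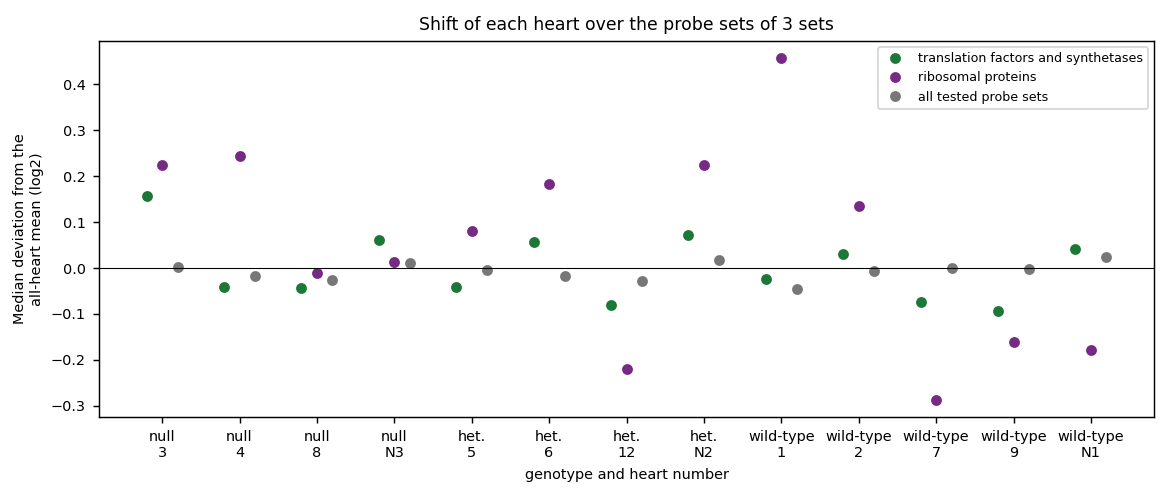
Median log2 deviation from the all-heart mean (y axis) in each heart (x axis, null, heterozygous, then wild-type) over the member, ribosomal protein and all tested probe sets. The members stay between -0.09 and 0.16, and the ribosomal proteins between -0.29 and 0.46, the highest on 17 probe sets of wild-type heart 1.

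Of the 14 genes with several tested probe sets, 10 had the same sign on all of them in each genotype comparison taken alone. By heart number 6 did. The 10 were not the same genes throughout. Eif4b and Eif4ebp2 had mixed signs for null minus wild-type, and Aars and Etf1 for the other genotype comparisons. The median gap between probe sets of a gene was 0.075, 0.14 and 0.085 for null minus wild-type, heterozygous minus wild-type and null minus heterozygous, and the largest were 0.73, 0.91 and 0.96.

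Related pathways were read from gene lists. Of the amino acid response list, targets and activators of ATF4, 12 probe sets of 11 genes were tested and 0 were called in any of the 4 comparisons, with a median of -0.07 for null minus wild-type. Of the list for control of translation by mTORC1, MAP kinases and poly(A) binding, 14 probe sets of 12 genes were tested, with a median of -0.06 and 0 called between genotypes. By heart number, where 7.14% of all tested probe sets were called, 2 of these 14 were: Larp1, which binds terminal oligopyrimidine mRNAs, was higher in later hearts (0.71 ± 0.13, adjusted p = 0.00851), and Ybx1, a packaging protein of mRNA, was lower (-0.60 ± 0.13, adjusted p = 0.0239). Of the rRNA synthesis and processing list, 18 probe sets of 14 genes were tested, with a median of -0.02 for null minus wild-type and 0 called between genotypes. By heart number 3 of these 18 were called: Fbl, the rRNA methyltransferase fibrillarin, was higher (0.57 ± 0.14, adjusted p = 0.0294), Polr1d, a subunit of RNA polymerases I and III, was higher (0.54 ± 0.16, adjusted p = 0.0497) and Nolc1, a nucleolar phosphoprotein, was lower (-0.70 ± 0.15, adjusted p = 0.0221). Of the 48 ribosomal protein probe sets 44 were above 0 in null minus wild-type, with a median of 0.19 and 0 called. Among the 160 tested probe sets with a mean above 15 on the log2 scale, 151 were above 0 with a median of 0.26. This level is near that of the ribosomal proteins (median 15.17), and many of them are in this class. No member, marker or list gene was taken out of it. Among all tested probe sets 48.6% were above 0.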

How the data were processed

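Each probe set and array had 1 deposited intensity value on a linear scale, with 10.1% to 29.5% of an array negative. The software that made them is not given in the sources used here. On arrays without blanks the mean between the 2 and 98 percentiles was 1500, so the authors had scaled them. Noise was the root mean square of each table's negative values (443.5 on A, 686.4 on B). Values were raised to 2 times the noise and taken to log2, so folds of dim members are understated. Blank cells were missing. Genotypes were tested by limma (version 3.58.1, R 4.3.3), 1 fit per table over 13 hearts, a variance trend, two-sided tests and Benjamini-Hochberg adjustment over all 4494 tested probe sets (2771 on A, 1723 on B), at a threshold of 0.05. The script was checked on simulated data. The number of arrays limits the precision.

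Probe sets were named from the platform annotation, which can be old. Members and lists were chosen with earlier results of these data known. Values per heart are given for members past the threshold and for the 3 smallest p-values in each direction of each genotype comparison. Other probe sets of these genes, members with groups that do not overlap, and others with their values were named after the values were seen. Alternatives changed the floor, the filter, the scaling (quantile, on the 1177 A and 1223 B probe sets without blanks, and median ratio), the weights, the variance trend, the adjustment, a heart-number block and each heart.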

Additional observations from a re-analysis of the deposited data

Results flagged for a closer look

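In 4 of 42 groups checked, 1 heart stood far from the rest of its genotype, where chance gives about 1 in 20 groups. Eif3b gave 4794.7 in wild-type heart 2, with 6551.0, 6381.0 and 6391.5 in the other wild-type hearts. Eif4a2 gave 9197.9 in heterozygous heart N2, with 11111.9, 11339.1 and 11297.7 in the others. The B-array probe set of Eef1a1 gave 28814.9 in heterozygous heart 12, with 85423.7, 90585.3 and 79312.7 in the others. The median deviation of the synthetases was 0.1865 on the log2 scale in wild-type heart N1, with -0.0842 to -0.0235 in the other wild-type hearts. The causes were not tested.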

How the results depend on the processing

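In each genotype comparison 0 members were called under all 23 alternative settings. By heart number, 1 member was called in the main setting (1.59%, against 7.14% of all tested probe sets). The count was 3 with log2 of the value plus 2 times the noise, 0 with no filter on low values and 2 with quantile scaling. It was 3 with array weights and 2 without the variance trend. Leaving out 1 heart gave 0 to 3: 0 without heterozygous heart 5 or 12, when only 39 members could be tested, and 3 without null heart N3. The share of all tested probe sets called in each of these settings is not given here, so these counts stand without a background. The median member difference by heart number was -0.10 under quantile scaling. Leaving out 1 heart gave medians of 0.0066 to 0.098 for null minus wild-type, -0.020 (without wild-type heart 7) to 0.088 (without heterozygous heart 5) for heterozygous minus wild-type, -0.034 (without heterozygous heart 12) to 0.059 (without null heart 8) for null minus heterozygous, and -0.062 (without null heart 4) to 0.020 (without null heart 3) by heart number. The Eef1a1 probe set C79877_rc_f_at (0.03 by heart number) turned to -0.12 without null heart 3 and to -0.0062 without null heart 8, and ranged up to 0.20 without wild-type heart 2. Of 496 recomputed values of the 23 named differences, 488 kept their direction and side of the threshold, 1 lost its call (Eef1a1, C78483_rc_f_at, no filter) and 5 gained one: m22432_f_at by heart number had an adjusted p of 0.0417 with log2 of the value plus 2 times the noise, 0.0293 with array weights, 0.0404 without null heart 3 and 0.0375 without null heart N3, and the B-array probe set of Eef1a1 had 0.0498 without heterozygous heart N2. The causes were not tested. No paired analysis was possible because the genotypes share no heart numbers. Signals near the floor limit what could be seen of the dim synthetases and initiation factors.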

Other observations

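The summed intensity of the liver markers Afp and Alb was taken over 3 probe sets. It was 456 to 1365 in null hearts, 774 to 5867 in heterozygous hearts and 720 to 3358 in wild-type hearts. By heart number it was 456 to 1546 in later and 742 to 5867 in earlier hearts.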
